A study of Mus musculus with 3 samples.

Results

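The enzymes of glycolysis, the pentose phosphate pathway and the tricarboxylic acid (TCA) cycle were taken as a list of 49 gene names, drawn up by the known function of the enzymes. Earlier results of these data were known when the list was chosen. The names stand for 48 genes, since Pkm2 is an older symbol of Pkm, out of 19518 genes measured on the array. In γδNKT thymocytes homozygous for the luxoid mutation of PLZF, 9 of the 43 list genes that could be read were lower than in wild type cells by over 1.2-fold, and none was higher by as much. Of all genes above background, 6.60% were lower and 3.38% higher by over 1.2-fold. The 9 were the aldolases Aldoa and Aldoc, the phosphofructokinase Pfkp, the enolase Eno2, the lactate transporter Slc16a1, the transaldolase Taldo1 and the TCA cycle genes Idh3g, Sdhd and Fh1. No member reached 2-fold, the size used in the study to call a gene PLZF dependent.

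PLZF is a zinc finger transcription factor, encoded by Zbtb16, that gives NKT cells their effector properties, and the arrays were made to find the genes that depend on it. Total RNA came from double-sorted CD4+CD8α− thymocytes of female mice aged 3 to 4 weeks, and 1 Affymetrix Mouse Gene 1.0 ST array was hybridised for each of the PLZFlu/lu, PLZF+/lu and PLZF+/+ genotypes. All mice were on a C57Bl/6 background, were Rag1-/- and carried the Vγ1Vδ6.4 TCR transgene, so the cells of every genotype bear a single γδ TCR and develop without other lymphocytes that need receptor rearrangement. The lu allele is a point mutation, so its transcript can still hybridise. Zbtb16 itself gave an intensity of 2890.3 in PLZFlu/lu, 6143 in PLZF+/lu and 8796 in PLZF+/+ cells. With 1 array per genotype there is no replicate error, no test was made, and every difference below is a difference between single arrays.

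Glycolysis breaks glucose down to pyruvate in the cytosol, and dividing or activated lymphocytes are known to use it heavily, exporting much of the pyruvate as lactate. The pentose phosphate pathway branches off early to make NADPH and ribose for nucleotides. The pyruvate dehydrogenase complex and the TCA cycle oxidise pyruvate in mitochondria and pass electrons to the respiratory chain, which includes succinate dehydrogenase, an enzyme of the cycle itself.

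Of the 48 genes, 43 had a probe set that lists no other gene, and 42 of these were brighter than background, an intensity of 108, which 95% of olfactory receptor probe sets did not exceed. Hk2, the inducible hexokinase, was the exception at 94.5 on all 3 arrays. The phosphoglucose isomerase Gpi1, Gapdh, the phosphoglycerate mutase Pgam1, the enolase Eno1 and G6pdx, the first enzyme of the pentose phosphate pathway, had no such probe set and were not analysed here. So the most widely used isoforms of several steps are missing from the counts. Many values in the table are the same number on all arrays, as for 45.1% of all probe sets and 8 of the 43 members. The sources used here do not say how the scans were summarised, so equal numbers are described as equal and nothing more is read from them.

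In PLZFlu/lu against PLZF+/+ cells, 29 of the 43 members were lower to any degree (67.4%), 1 was higher and 13 were equal. Among the 11859 genes above background, 35.7% were lower and 19.5% higher. Bright genes differ more often than dim ones, and in the brightness range of the members (mean intensities of 183 to 10632) 40.9% of 9350 genes were lower. The 9 members lower by over 1.2-fold make 20.9% of the 43, against 6.60% of genes above background, 7.80% of genes in the brightness range and 4.26% of all genes measured. No member was higher by over 1.2-fold, against 3.38% of genes above background. None passed 2-fold in either direction, against 0.683% of those genes. The median log2 difference was -0.08 over the 42 members above background and -0.06 over all 43, and it was 0 over genes above background. RNA is from bulk sorted cells, so lower expression per cell and fewer cells of a kind cannot be told apart.

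**Figure D1:**
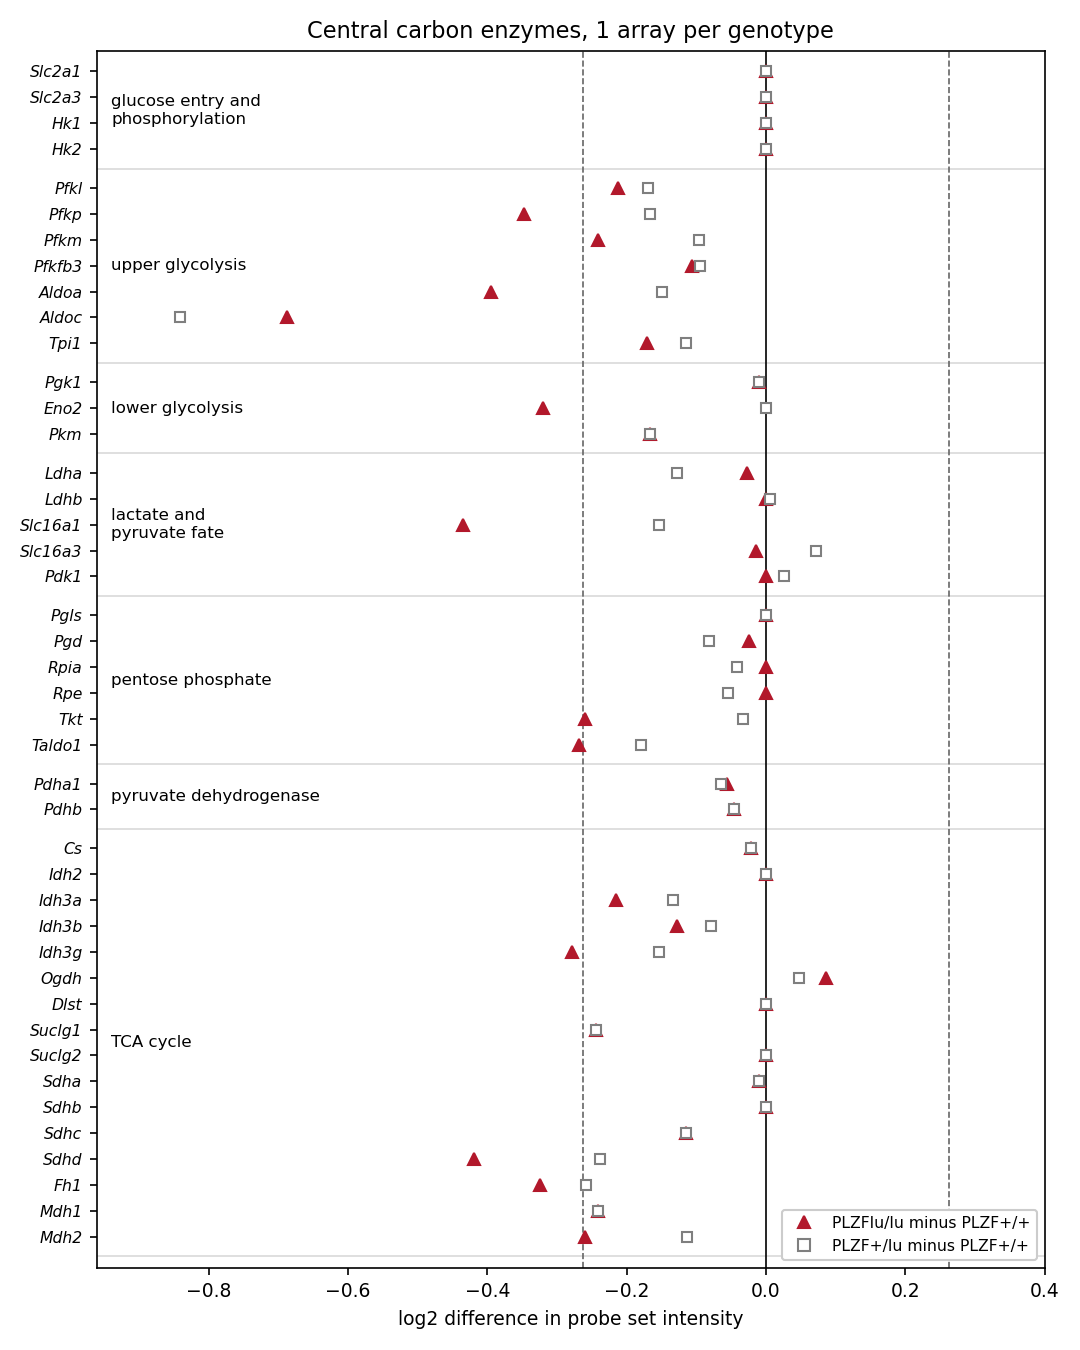
Log2 difference in probe set intensity for the 43 measured members, grouped by pathway from glucose entry at the top to the TCA cycle at the bottom, with PLZFlu/lu minus PLZF+/+ as triangles and PLZF+/lu minus PLZF+/+ as open squares. Dashed lines mark 1.2-fold, and 9 triangles and 1 square lie beyond the left line, with none beyond the right line.

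The probe sets that stand for the 4 glucose entry genes held equal numbers in PLZFlu/lu and PLZF+/+ cells, with Hk2 below background. The glucose transporter Slc2a1 had an intensity of 1624 on all 3 arrays. Slc2a3, the other glucose transporter on the list, had 2985 on each. Hk1, the constitutive hexokinase that traps glucose as its phosphate, had 10632 on each. A dimmer probe set of Hk1 did differ, with 1181 in PLZFlu/lu, 1181 in PLZF+/lu and 1428 in PLZF+/+ cells. Its log2 difference of -0.27 in both mutant genotypes was past the 1.2-fold rule. The brightest probe set stands for the gene in the counts, so Hk1 is counted as equal.

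The upper part of glycolysis, which spends ATP and splits the sugar, was lower throughout. All 7 measured genes were lower in PLZFlu/lu than in PLZF+/+ cells, 3 of them by over 1.2-fold, with a median log2 difference of -0.24. Aldoc, an aldolase isoform best known from brain, had 227 in PLZFlu/lu, 204 in PLZF+/lu and 366 in PLZF+/+ cells, which is 1.61-fold lower in PLZFlu/lu (log2 -0.69). This is the largest difference of any member, and PLZF+/lu lay below both other genotypes (log2 -0.84 against PLZF+/+). Aldoa, the aldolase of muscle and most other tissues, had 3371 in PLZFlu/lu, 3995 in PLZF+/lu and 4430.1 in PLZF+/+ cells, 1.31-fold lower in PLZFlu/lu (log2 -0.39). Pfkp, one of 3 subunits of phosphofructokinase, the committed and most regulated step, had 639 in PLZFlu/lu, 724 in PLZF+/lu and 812 in PLZF+/+ cells, 1.27-fold lower in PLZFlu/lu (log2 -0.35). Both Aldoa and Pfkp were graded, with the heterozygous array in the middle.

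The other phosphofructokinase subunits lay on the same side. The muscle subunit Pfkm had a log2 difference of -0.24 and the liver subunit Pfkl one of -0.21 in PLZFlu/lu against PLZF+/+ cells. Triose phosphate isomerase, Tpi1, which interconverts the products of aldolase, had -0.17. The smallest difference of the group was that of Pfkfb3, which makes the allosteric activator of phosphofructokinase, with 461 in PLZFlu/lu, 464 in PLZF+/lu and 496 in PLZF+/+ cells (log2 -0.11).

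In the lower part of glycolysis, which regains ATP, 3 genes were measured and each was lower in PLZFlu/lu than in PLZF+/+ cells. Eno2, the neuronal enolase, had 157 in PLZFlu/lu, 197 in PLZF+/lu and 197 in PLZF+/+ cells, 1.25-fold lower in PLZFlu/lu (log2 -0.32). It is a dim gene here, and the isoform Eno1 could not be read. Pkm, the pyruvate kinase of lymphocytes, had 2064 in PLZFlu/lu, 2064 in PLZF+/lu and 2316 in PLZF+/+ cells (log2 -0.17), and its other probe set differed less (log2 -0.03). Pgk1, phosphoglycerate kinase, had 2165 in PLZFlu/lu, 2165 in PLZF+/lu and 2181 in PLZF+/+ cells, the smallest difference of the group (log2 -0.01).

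Among the genes that decide between lactate and mitochondrial oxidation, a single one was past 1.2-fold. Slc16a1, the monocarboxylate transporter MCT1 that carries lactate and pyruvate across the plasma membrane, had 869 in PLZFlu/lu, 1056 in PLZF+/lu and 1174 in PLZF+/+ cells, 1.35-fold lower in PLZFlu/lu (log2 -0.43). Ldha, the lactate dehydrogenase subunit of glycolytic cells, had 5921 in PLZFlu/lu, 5525 in PLZF+/lu and 6034 in PLZF+/+ cells (log2 -0.03 in PLZFlu/lu). Ldhb, the other subunit, had 1048 in PLZFlu/lu, 1053 in PLZF+/lu and 1048 in PLZF+/+ cells. Pdk1, a kinase that turns pyruvate dehydrogenase off, was likewise equal in the homozygous genotypes, with an intensity of 845 for PLZFlu/lu, 859.7 for PLZF+/lu and 845 for PLZF+/+. Slc16a3, the lactate exporter MCT4, had a log2 difference of -0.01 in PLZFlu/lu and 0.07 in PLZF+/lu cells.

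Many glycolytic promoters are known to hold the core letters ACGTG, which occur in sites of the hypoxia-inducible factors, and the longer CACGTG, an E box bound by MYC and its partners, which contains ACGTG on both strands. Windows of the 250 bases before a start site (GRCm38.p6, RefSeq) are shown for 3 members, with matches on either strand in capitals. They show these letters in members with clear and with small differences, and were chosen after the values were seen. Those of Aldoa (chr7:126799255-126799504, minus strand), Slc16a1 (chr3:104638414-104638663, plus strand) and Ldha (chr7:46845554-46845803, plus strand) read, 5′ to 3′:
Aldoa: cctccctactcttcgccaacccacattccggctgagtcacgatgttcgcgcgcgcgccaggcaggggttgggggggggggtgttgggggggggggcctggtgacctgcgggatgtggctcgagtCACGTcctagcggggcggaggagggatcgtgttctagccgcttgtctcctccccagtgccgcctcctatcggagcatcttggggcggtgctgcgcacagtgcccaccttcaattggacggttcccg
Slc16a1: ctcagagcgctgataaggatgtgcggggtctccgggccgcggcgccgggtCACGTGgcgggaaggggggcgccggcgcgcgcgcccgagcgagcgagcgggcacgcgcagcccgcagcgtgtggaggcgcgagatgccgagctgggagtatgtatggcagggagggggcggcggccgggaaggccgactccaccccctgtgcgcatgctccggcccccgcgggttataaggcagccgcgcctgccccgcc
Ldha: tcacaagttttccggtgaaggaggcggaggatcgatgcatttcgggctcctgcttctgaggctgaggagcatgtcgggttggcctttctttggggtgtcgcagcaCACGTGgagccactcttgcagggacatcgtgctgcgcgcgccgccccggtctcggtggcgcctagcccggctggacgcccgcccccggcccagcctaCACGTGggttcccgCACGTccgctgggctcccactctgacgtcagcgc
The Aldoa window holds ACGTG once, 126 bases before the start. The Slc16a1 window holds 1 CACGTG, and the Ldha window 2 of them among 5 matches of ACGTG. Windows of other start sites of Aldoa (chr7:126800448-126800697) and Ldha (chr7:46846832-46847081) hold 0 matches. A relation between matches and the differences was not tested.

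A window was found for 40 of the 43 members, not for Slc2a3, Idh3a and Sdhc. ACGTG was in a window of 15 of the 40 (37.5%), against 18.5% of all 27025 genes with a window. Among the 9 members lower by over 1.2-fold it was in 3, namely Aldoa, Slc16a1 and Idh3g. CACGTG was in 5 of the 40 (12.5%), against 6.86% of all genes. The GC box GGGCGG was in 29 of the 40 (72.5%), against 35.4% of all genes, and CCAAT in 18 (45.0%), against 37.5%. The genes compared were not limited to those above background, nor matched in base content or in number of windows. The 40 members had 57 windows, against 32851 for the 27025 genes. These matches describe letters in the windows, and binding was not measured.

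**Figure D2:**
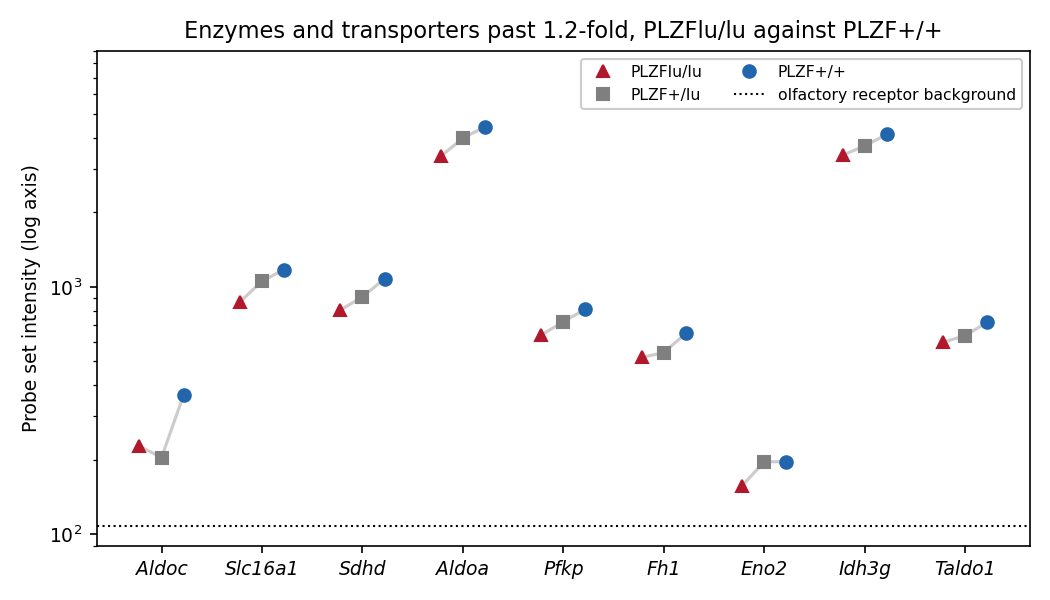
Probe set intensity on a log axis of the 9 members lower by over 1.2-fold in PLZFlu/lu against PLZF+/+ cells, in the order of the difference, with PLZFlu/lu at the left, PLZF+/lu in the middle and PLZF+/+ at the right of each gene. The heterozygous array lies between the others in 7 of the 9, below both in Aldoc and level with PLZF+/+ in Eno2.

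In the pentose phosphate pathway the largest differences were those of the enzymes that exchange carbon between pentoses and glycolytic sugars. Taldo1, transaldolase, had 597 in PLZFlu/lu, 636 in PLZF+/lu and 719.9 in PLZF+/+ cells, 1.21-fold lower in PLZFlu/lu (log2 -0.27), only just past the 1.2-fold rule. Tkt, transketolase, had 449.5 in PLZFlu/lu, 526 in PLZF+/lu and 538 in PLZF+/+ cells, and its 1.197-fold difference (log2 -0.26) fell just short of the rule. Pgd, phosphogluconate dehydrogenase of the NADPH-making branch, had a log2 difference of -0.02. The isomerases of the pentoses, Rpia and Rpe, were equal in PLZFlu/lu and PLZF+/+ cells, with 335 for Rpia and 1445 for Rpe in each, and 326 for Rpia and 1391 for Rpe in PLZF+/lu cells. The lactonase Pgls had 420.2 on all 3 arrays.

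At the entry to the TCA cycle, the subunits Pdha1 and Pdhb of pyruvate dehydrogenase differed little. Pdhb had 244 in PLZFlu/lu, 244 in PLZF+/lu and 252 in PLZF+/+ cells (log2 -0.05), and Pdha1 had a log2 difference of -0.06. In the cycle itself 11 of 16 genes were lower in PLZFlu/lu than in PLZF+/+ cells, 3 by over 1.2-fold, 1 was higher and 4 were equal, with a median log2 difference of -0.12.

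The genes past 1.2-fold stand at different steps of the cycle. Sdhd, a membrane anchor of succinate dehydrogenase, had 805 in PLZFlu/lu, 913 in PLZF+/lu and 1077 in PLZF+/+ cells, 1.34-fold lower in PLZFlu/lu (log2 -0.42). Fh1, fumarase, which takes the next step, had 519 in PLZFlu/lu, 543 in PLZF+/lu and 649 in PLZF+/+ cells, 1.25-fold lower in PLZFlu/lu (log2 -0.32). Idh3g, a regulatory subunit of the NAD-dependent isocitrate dehydrogenase, had 3408 in PLZFlu/lu, 3716 in PLZF+/lu and 4134 in PLZF+/+ cells, 1.21-fold lower in PLZFlu/lu (log2 -0.28). Its partner subunits followed at smaller size, with log2 differences of -0.21 for the catalytic Idh3a and -0.13 for Idh3b, and all 3 subunits were graded over the genotypes. Idh2, the NADP-dependent mitochondrial enzyme for the same substrate, had 1104 on all 3 arrays.

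Malate dehydrogenase closes the cycle. The mitochondrial Mdh2 had 4074 in PLZFlu/lu, 4509 in PLZF+/lu and 4877 in PLZF+/+ cells, 1.197-fold lower and just short of the rule (log2 -0.26), and the cytosolic Mdh1 had a log2 difference of -0.24 in both mutant genotypes. Suclg1, the subunit that both forms of succinyl-CoA ligase share, also had -0.24 in both, whereas Suclg2, the subunit of the GTP-forming enzyme, had 697 on all 3 arrays.

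The remaining subunits of succinate dehydrogenase did not share the difference of Sdhd. Sdhd lies on chromosome 9, as does Zbtb16, and any part of linkage to the lu allele in its difference was not tested. The iron-sulphur subunit Sdhb had 1143 on all 3 arrays, and the flavoprotein Sdha (log2 -0.01) and the second anchor Sdhc (log2 -0.11) stayed inside 1.2-fold. Citrate synthase, Cs, which starts the cycle, had -0.02. In the oxoglutarate dehydrogenase complex, Dlst had 1179 on all 3 arrays, and Ogdh was the one member higher in PLZFlu/lu cells, with 2417 in PLZFlu/lu, 2355 in PLZF+/lu and 2278 in PLZF+/+ cells (log2 0.09).

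The heterozygous array asks whether loss of 1 functional allele goes with a part of the difference. In PLZF+/lu against PLZF+/+ cells 29 members were lower (67.4%), 5 higher (11.6%) and 9 equal, and the median log2 difference over the 43 was -0.06. Of genes above background, 36.4% were lower and 21.2% higher, and in the brightness range of the members 43.6% were lower. The higher members were Slc16a3, Ogdh, Pdk1, Ldhb and, by 0.00026 on the log2 scale, Slc2a3. Only Aldoc was lower by over 1.2-fold, 2.33% of the members, against 6.16% of genes above background. None was higher by as much, against 2.55% of those genes. In PLZFlu/lu against PLZF+/lu cells, 20 members were lower (46.5%), 7 higher (16.3%) and 16 equal, with a median of 0. Of genes above background, 27.6% were lower and 27.5% higher in that comparison. Eno2 and Slc16a1 were lower by over 1.2-fold, 4.65% of the members against 2.24% of genes above background, and none was higher, against 2.52%. These comparisons share arrays with the first one and are not independent of it.

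The order of the genotypes was graded in some members. PLZF+/lu lay strictly between the other genotypes in 16 of the 43 members and in 17.5% of genes above background. It was equal to PLZFlu/lu in 8 members, among them Pkm, Suclg1 and Mdh1. Of the 29 members lower in PLZFlu/lu than in PLZF+/+ cells, 15 (51.7%) had PLZF+/lu in between, against 31.3% of the 4231 genes above background that were lower in PLZFlu/lu. PLZF+/lu was below PLZF+/+ in 27 of the 29 (93.1%), against 80.1% of those genes. The 29 were picked as lower than the same PLZF+/+ array, so this count is not independent of that choice. Those genes were not matched to the members in brightness.

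**Figure D3:**
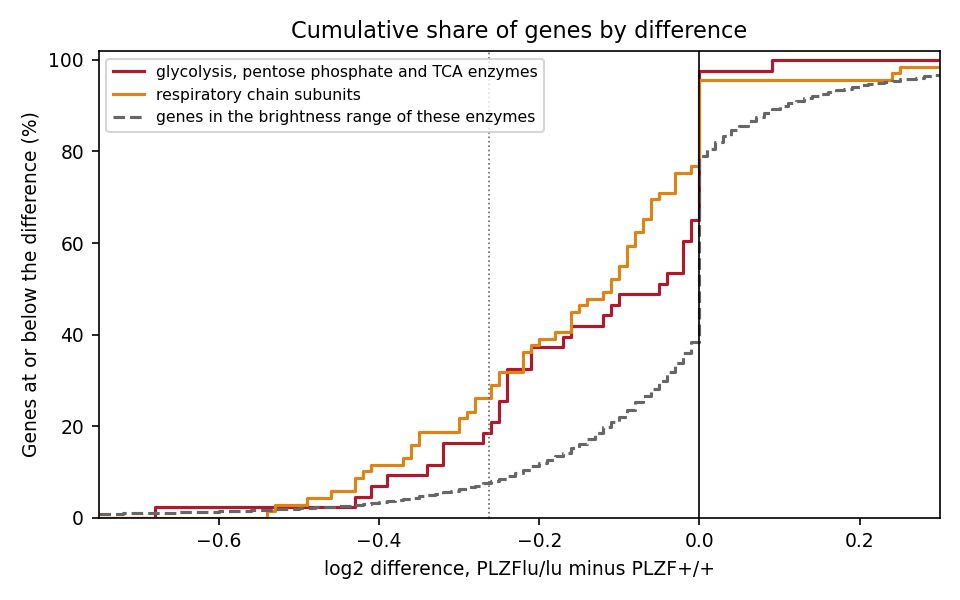
Cumulative share of genes, in percent, at or below each log2 difference of PLZFlu/lu minus PLZF+/+, for the 43 measured members, 69 respiratory chain subunits and the 9350 genes in the brightness range of the members. The dotted line marks 1.2-fold lower, where the members stand at 20.9% and the genes of like brightness at 7.80%, and the step at 0 is made by genes with equal values.

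The respiratory chain takes up the electrons of the TCA cycle, and 81.2% of its subunits were on the lower side. Of 69 measured subunits, 56 were lower in PLZFlu/lu than in PLZF+/+ cells, 3 higher and 10 equal, with a median log2 difference of -0.12. By over 1.2-fold, 19 were lower (27.5%) and 1 was higher, against 6.60% and 3.38% of genes above background. To any degree, 35.7% of those genes were lower and 19.5% higher. In complex I, 25 of 35 subunits were lower, 9 of them by over 1.2-fold. In cytochrome oxidase, complex IV, all 9 were lower, 4 of them past the rule, and in ATP synthase 14 of 15 were lower, 3 of them past the rule. The complex I subunit Ndufa8 had 1408 in PLZFlu/lu, 1483 in PLZF+/lu and 2053 in PLZF+/+ cells (log2 -0.54), and Ndufa2 had 828 in PLZFlu/lu, 847 in PLZF+/lu and 1200.2 in PLZF+/+ cells (log2 -0.54). On the other side, cytochrome c, Cycs, had 2791 in PLZFlu/lu, 2243 in PLZF+/lu and 2243 in PLZF+/+ cells (log2 0.32), and Ndufb2 had a log2 difference of 0.24. In PLZF+/lu against PLZF+/+ cells, 60 of the 69 were lower (87.0%), against 36.4% of genes above background. By over 1.2-fold, 12 were lower (17.4%), against the 6.16% of genes above background given before.

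Genes around the TCA cycle that were not members lay on both sides. Of 25 above background, 16 were lower in PLZFlu/lu than in PLZF+/+ cells, 3 by over 1.2-fold (12%, against 6.60% of genes above background). Of the others, 3 were higher, 1 by over 1.2-fold (4%, against 3.38%). The lower ones were the mitochondrial malic enzyme Me3, with 211 in PLZFlu/lu, 275 in PLZF+/lu and 275 in PLZF+/+ cells (log2 -0.38), the mitochondrial pyruvate carrier subunit Mpc1 (log2 -0.38) and the cytosolic aspartate aminotransferase Got1 (log2 -0.36). Mpc1 had 1618 in PLZFlu/lu, 1756 in PLZF+/lu and 2100.2 in PLZF+/+ cells. The higher one was Slc25a12, a mitochondrial aspartate and glutamate carrier, with 3402 in PLZFlu/lu, 2864 in PLZF+/lu and 2332 in PLZF+/+ cells (log2 0.55), and Glud1, glutamate dehydrogenase, had 0.08.

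Other enzymes and transporters of sugar use lay on both sides. For comparison, 35.7% of genes above background were lower in PLZFlu/lu to any degree, 6.60% by over 1.2-fold, and 19.5% were higher. Of 11 further genes listed as glycolytic or related by name and above background, 4 were lower in PLZFlu/lu and 7 equal, with none past 1.2-fold. The largest differences were those of Pgam5 (log2 -0.12), listed for its name only, and Pgm1 (log2 -0.10). Of 19 regulators and further transporters above background, 6 were lower, none by over 1.2-fold. Another 5 were higher, 2 by over 1.2-fold (10.5%, against 3.38% of genes above background). Slc16a5, a transporter of the monocarboxylate family, was the one gene of these metabolic lists past 2-fold, with 739.7 in PLZFlu/lu, 529 in PLZF+/lu and 366 in PLZF+/+ cells (log2 1.01). The other higher gene was Txnip, a glucose-responsive inhibitor of glucose uptake, with 4479 in PLZFlu/lu, 4103 in PLZF+/lu and 3273 in PLZF+/+ cells (log2 0.45). It is named after its values were seen. Of 10 other pentose phosphate and ribose genes above background, 5 were lower and 2 higher, none past 1.2-fold, with log2 differences of -0.16 for Dera, -0.10 for Prps2, 0.06 for Rbks and 0.02 for H6pd.

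Regulators of these pathways differed in RNA about as often as genes above background did. Hif1a, the oxygen-regulated factor that turns on glycolytic genes, had 3254 on all 3 arrays, and Myc had 2766 in PLZFlu/lu, 2766 in PLZF+/lu and 2949 in PLZF+/+ cells (log2 -0.09). Of 38 regulators of hypoxia, MYC and nutrient responses above background, 13 were lower in PLZFlu/lu (34.2%), 10 higher (26.3%) and 15 equal. Of all genes above background, 35.7% were lower and 19.5% higher. None of the regulators was lower by over 1.2-fold, against 6.60% of those genes. The prolyl hydroxylase Egln3 alone was higher by as much (log2 0.32), 2.63% of the list against 3.38%. On the higher side Mga came next (log2 0.20), and Hif3a (log2 -0.21) and Mlx (log2 -0.16) had the largest differences on the lower side. Of 14 further hypoxia-responsive genes above background, 6 were lower (42.9%) and 4 higher (28.6%). Gbe1, the glycogen branching enzyme, was the only one past 1.2-fold (log2 0.37), 7.14% of the list, with Ndrg1 next (log2 0.18). The opposite end was held by Ero1a (log2 -0.16) and Higd1a (log2 -0.16).

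**Figure D4:**
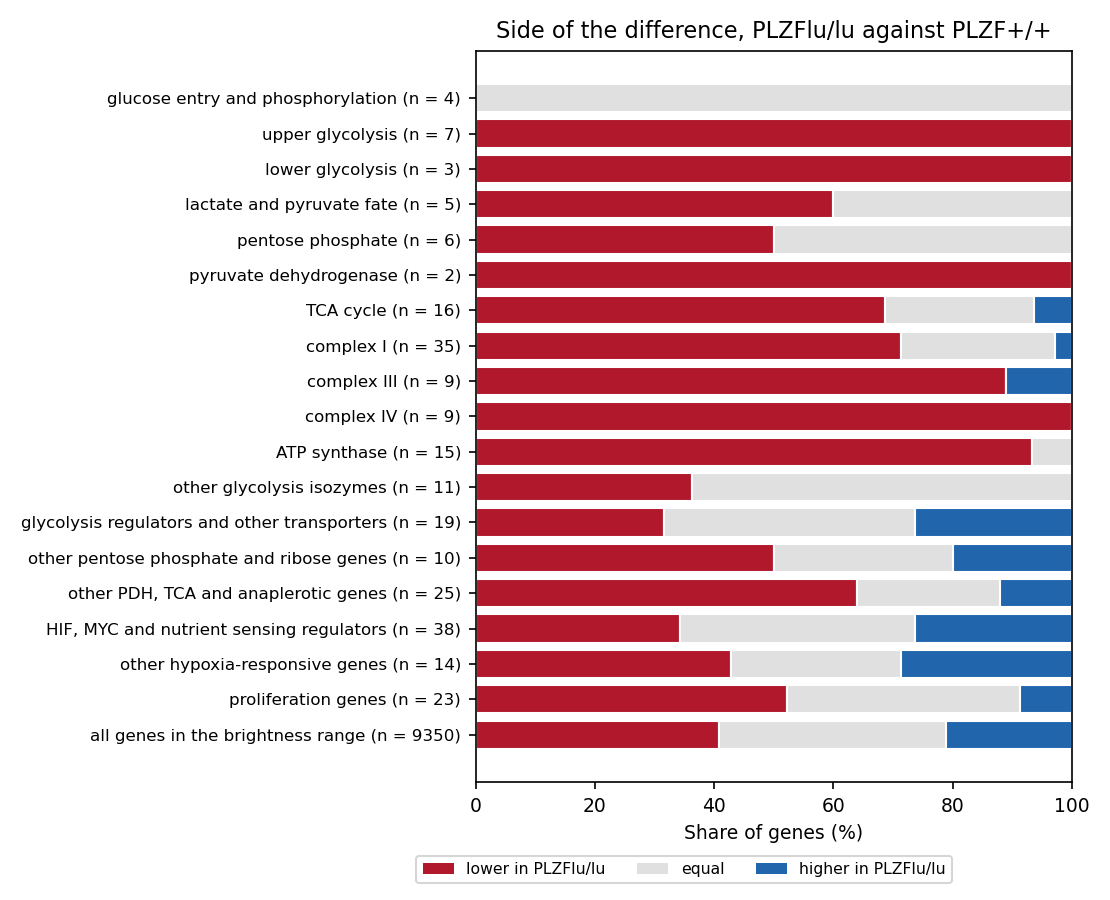
Share of genes, in percent, that were lower, equal or higher in PLZFlu/lu than in PLZF+/+ cells, for the 7 pathways of the members, 4 respiratory chain complexes, 7 other lists (genes above background) and all genes in the brightness range. Lower genes make up the whole bar for upper glycolysis, lower glycolysis, pyruvate dehydrogenase and complex IV, against 40.9% for all genes of that brightness.

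Cell makeup and growth were read from marker lists on the same arrays. Markers of CD4+CD8+ thymocytes, the stage that the CD8α− gate should remove, lay on the higher side in PLZFlu/lu cells, with 5 of 8 measured (Cd8a, Cd8b1, Dntt, Arpp21 and Rag1, the gene mutated in these mice) higher by over 1.2-fold and none lower, against the 3.38% of genes above background. Their summed intensity was 5957 in PLZFlu/lu, 4985 in PLZF+/lu and 3848 in PLZF+/+ cells, and Cd8b1 had 2958 in PLZFlu/lu, 2263 in PLZF+/lu and 1289.7 in PLZF+/+ cells. The study itself names Cd8b1 as a gene that is lower where PLZF is present. In PLZF+/lu against PLZF+/+ cells 3 of the 8 were higher, Cd8a (log2 0.49) and Cd8b1 (log2 0.81) by over 1.2-fold. Another 3 were lower there, Rag1 (log2 -0.12) and Dntt (log2 -0.05) among them. Of 23 proliferation genes above background, 12 were lower in PLZFlu/lu than in PLZF+/+ cells, 3 by over 1.2-fold (13.0%, against 6.60% of genes above background). Of the rest, 2 were higher. In PLZF+/lu against PLZF+/+ cells, 12 of the 23 were lower by over 1.2-fold (52.2%, against 6.16% of genes above background). The 24 measured summed to 15716 in PLZFlu/lu, 14022 in PLZF+/lu and 17611 in PLZF+/+ cells, with PLZF+/lu the lowest. The 3 were Mcm2 (log2 -0.39), Pcna (log2 -0.35) and Tyms (log2 -0.32), and Mki67 had 676 in PLZFlu/lu, 402 in PLZF+/lu and 605 in PLZF+/+ cells. The other higher gene was Ccne1 (log2 0.02). The part of either list in the enzyme differences was not tested.

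The T cell and γδNKT markers fitted the label in that all 9 measured were above background. Cd3e had 10599 in PLZFlu/lu, 11334 in PLZF+/lu and 10550 in PLZF+/+ cells. The list was not level over the genotypes, with 6 of the 9 higher and 2 lower in PLZFlu/lu than in PLZF+/+ cells. Past 1.2-fold were Cd5 (log2 0.28) and Zbtb16 (log2 -1.61). The 6 measured B cell markers summed to 1696 in PLZFlu/lu, 1731 in PLZF+/lu and 1948 in PLZF+/+ cells, with Cd79a, Ms4a1, Ebf1 and Blnk below background and Pax5 at its edge. Most of that sum was Cd79b, with 1406 in PLZFlu/lu, 1440.2 in PLZF+/lu and 1658 in PLZF+/+ cells (log2 -0.24), and its part in the enzyme differences was not tested. The 8 myeloid markers summed to 745 in PLZFlu/lu, 738 in PLZF+/lu and 775 in PLZF+/+ cells, with 6 of them, Lyz2 and Csf1r included, below background. Of the other 2, Itgam had 139 in PLZFlu/lu, 152 in PLZF+/lu and 164 in PLZF+/+ cells (log2 -0.24), and Fcer1g had 227 in PLZFlu/lu, 209 in PLZF+/lu and 233 in PLZF+/+ cells. The 8 stromal markers summed to 3561 in PLZFlu/lu, 3576 in PLZF+/lu and 3549 in PLZF+/+ cells. Most of that sum was Pecam1, with 2643 on all 3 arrays. Col3a1 was higher (log2 0.20) and Krt8 lower (log2 -0.09) in PLZFlu/lu than in PLZF+/+ cells, and 6 were equal. Both red cell markers were below background. Array medians were 159.7 in PLZFlu/lu, 161.8 in PLZF+/lu and 160.02 in PLZF+/+ cells, and upper quartiles were 674 in PLZFlu/lu, 670.1 in PLZF+/lu and 695 in PLZF+/+ cells.

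The upper quartile was thus brightest in PLZF+/+ cells. After centring on the median or cyclic loess, all 9 members stayed lower by over 1.2-fold. After quantile normalization 8 of the 9 did, Taldo1 (log2 -0.22) no longer passed and Mdh2 (log2 -0.28) did. The split of the members became 27 lower and 16 higher by quantiles, 29 lower and 14 higher by median centring, and 30 lower and 13 higher by cyclic loess, against 29 lower, 1 higher and 13 equal as deposited. The 13 equal members left 0 by at most 0.04 on the log2 scale by quantiles and by less in both others. By quantiles, 3 members that were lower as deposited also changed side, namely Ldha (log2 0.003), Pgd (log2 0.007) and Slc16a3 (log2 0.03). With PLZF+/+ and PLZF+/lu averaged as the reference, 6 of the 9 were lower by over 1.2-fold in PLZFlu/lu cells, without Taldo1, Idh3g and Fh1, and Ldha and Pgd changed side.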

How the data were processed

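The series holds 3 Affymetrix Mouse Gene 1.0 ST arrays, 1 per genotype. Scans were processed by the authors in GenePattern (modules ExpressionFileCreator, MultiplotPreprocess, Multiplot), and normalization control probe sets were removed. The deposited table has linear intensities for 24800 probe sets. The sources used here do not state the background correction, summarisation or scaling. The submitters' processing notes name the build mm 8. The deposited intensities were used as they are.

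Probe sets were named from the platform annotation only where exactly 1 gene is listed (21065 probe sets, against 1187 with several and 2548 with none), with symbols updated to the GRCm38.p6 RefSeq table. The brightest probe set stood for a gene. Log2 differences were taken between arrays, values within 1e-06 were called equal, and genes were counted past 1.2-fold and 2-fold. Members past 1.2-fold and the smallest difference in each pathway are given with all intensities, and of each other list the genes past 2-fold or else the largest differences in each direction. The enzymes and all lists were chosen with earlier results of these data known. The number of arrays limits the precision, and no test was run.

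Alternatives were quantile normalization, median centring and cyclic loess (R 4.3.3, limma 3.58.1), 32 added to each intensity, a filter on dim genes, the mean over probe sets, the mean of PLZF+/+ and PLZF+/lu as reference, folds of 1.1 and 1.5, and symbols as annotated. Other steps used Python 3.11.15, numpy 2.4.6 and pandas 2.3.3, and the counting was tested on simulated data.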

Additional observations from a re-analysis of the deposited data

How the results depend on the processing

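The count of members lower by over 1.2-fold in PLZFlu/lu than in PLZF+/+ cells, 9 as deposited, was 6 to 9 under each alternative that kept that fold. Taldo1, just inside the rule, left the count by quantiles (-0.22, with Mdh2 in its place), with 32 added (-0.26) and with PLZF+/+ and PLZF+/lu averaged (-0.18), where Idh3g (-0.20) and Fh1 left it too. Of genes above background, 5.60% were lower by over 1.2-fold by quantiles, 5.15% with 32 added and 3.26% with PLZF+/+ and PLZF+/lu averaged. As deposited it was 6.60%. At 1.5-fold the count of members was 1, and at 1.1-fold it was 18, with no share of all genes taken at either fold. No alternative gave a member higher by the fold used. In PLZF+/lu against PLZF+/+ cells the count of lower members was 1, but 2 after centring on the median and 12 at 1.1-fold. The median log2 difference of the measured members, -0.06 in PLZFlu/lu against PLZF+/+ cells, ranged over the alternatives between -0.10, for the mean over probe sets, and -0.05, for the mean of PLZF+/+ and PLZF+/lu as reference. Members lower to any degree numbered 27 to 32, a count chosen after seeing the data. For the 9 named members under 6 alternatives, 51 of 54 differences moved by less than 0.1 on the log2 scale and none changed sign. The other 3 were Aldoc (-0.27), Sdhd (-0.30) and Fh1 (-0.20) when PLZF+/+ and PLZF+/lu were averaged as the reference. Some of the 54 could not move: each of the 9 has 1 probe set, so the mean over probe sets left them unchanged. Centring on the median shifted all 9 by the same small amount. No paired analysis was possible because each genotype has 1 array, and no array could be left out for the same reason. Differences of this size cannot be set against replicate error here, and 5 enzymes, among them Gapdh and Eno1, were not read.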
